A study of Mus musculus with 10 samples.

Results

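Transcripts of 9 genes of necroptosis, the inflammasome and pyroptosis were measured in the liver 6 h after CD95-Ab or saline was injected into mice. These genes were Ripk3, Mlkl, Zbp1, Nlrp3, Pycard, Casp1, Casp4, Gsdmd and Ninj1, taken by name from the 38922 genes in each table, and all 9 were found. The mice were wild-type C57BL/6N males aged 6 weeks. Each of the 5 mice in the CD95-Ab group received 0.5 µg/g body weight of an antibody that activates the death receptor CD95 (Fas) by intraperitoneal injection. The 5 controls received saline in the same volume. Whole liver tissue was sequenced, so a transcript level is a mixture over hepatocytes, resident cells and blood cells, and fewer cells of a type cannot be told apart from less RNA per cell. All 9 transcripts were on average more abundant after CD95-Ab, and 8 of them passed the test, led by the sensor Nlrp3 and the caspase Casp4.

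Necroptosis is a lytic form of cell death in which the kinase RIPK3, activated by RIPK1 or by the nucleic acid sensor ZBP1, phosphorylates the pseudokinase MLKL, and MLKL then permeabilises the plasma membrane. Caspase-8, which CD95 engages through the adaptor FADD to start apoptosis, cleaves RIPK1 and RIPK3 and so holds necroptosis in check. In an inflammasome, a sensor such as NLRP3 assembles with the adaptor ASC (encoded by Pycard) and caspase-1, which matures the cytokines IL-1β and IL-18 and cleaves gasdermin D. The mouse caspase encoded by Casp4 recognises lipopolysaccharide in the cytosol and cleaves gasdermin D directly. Gasdermin D then forms the pores of pyroptosis, and NINJ1 ruptures the plasma membrane late in lytic death. In the liver, inflammasome components are best known from Kupffer cells and infiltrating myeloid cells, and healthy hepatocytes are known for little RIPK3.

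Total counts per mouse lay between 25965699 and 62097636, and 3 counts corresponded to between 0.0483 and 0.116 CPM (counts per 1000000). Every one of the 9 transcripts was above that level in every mouse. The labels give no sequencing batch. All 9 hepatocyte markers were detected, with albumin (Alb) at 84727 ± 8839 CPM in saline and 41434 ± 12103 CPM in CD95-Ab livers (average ± SD, n = 5).

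In the test over all 13719 genes with enough counts, 3480 genes (25.4%) were higher and 3015 (22.0%) were lower in CD95-Ab livers at a false discovery rate (FDR) of 0.05 or less, from edgeR's quasi-likelihood test with Benjamini-Hochberg adjustment. All 9 members were tested. In the same fit 8 of them were higher, 0 were lower, and Ninj1 did not pass the threshold. Log2 fold changes are given as CD95-Ab minus saline with their standard error (SE). Their median over the 9 genes was 1.93, ranging from 0.23 to 3.82, against a median of 0.0064 over all tested genes. In 7 of the 9 genes every CD95-Ab liver was above every saline liver, as it was for 18.6% of all tested genes, and in none was every CD95-Ab liver below, as for 14.7%. The exceptions were Zbp1 and Ninj1.

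With the additional threshold of a log2 fold change of 2 or more, 904 genes (6.59%) were counted, and 4 of the 9 members, Nlrp3, Casp4, Zbp1 and Pycard. This second count is fragile, because Zbp1 and Pycard lay just above the limit and Mlkl and Ripk3 just below it, all within their SE of 2. It fell to 2 without saline mouse 3, without saline mouse 4 or without CD95-Ab mouse 2, and it was 6 without saline mouse 1 or saline mouse 2. The count of 8 higher genes was the same in each of these fits.

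**Figure D1:**
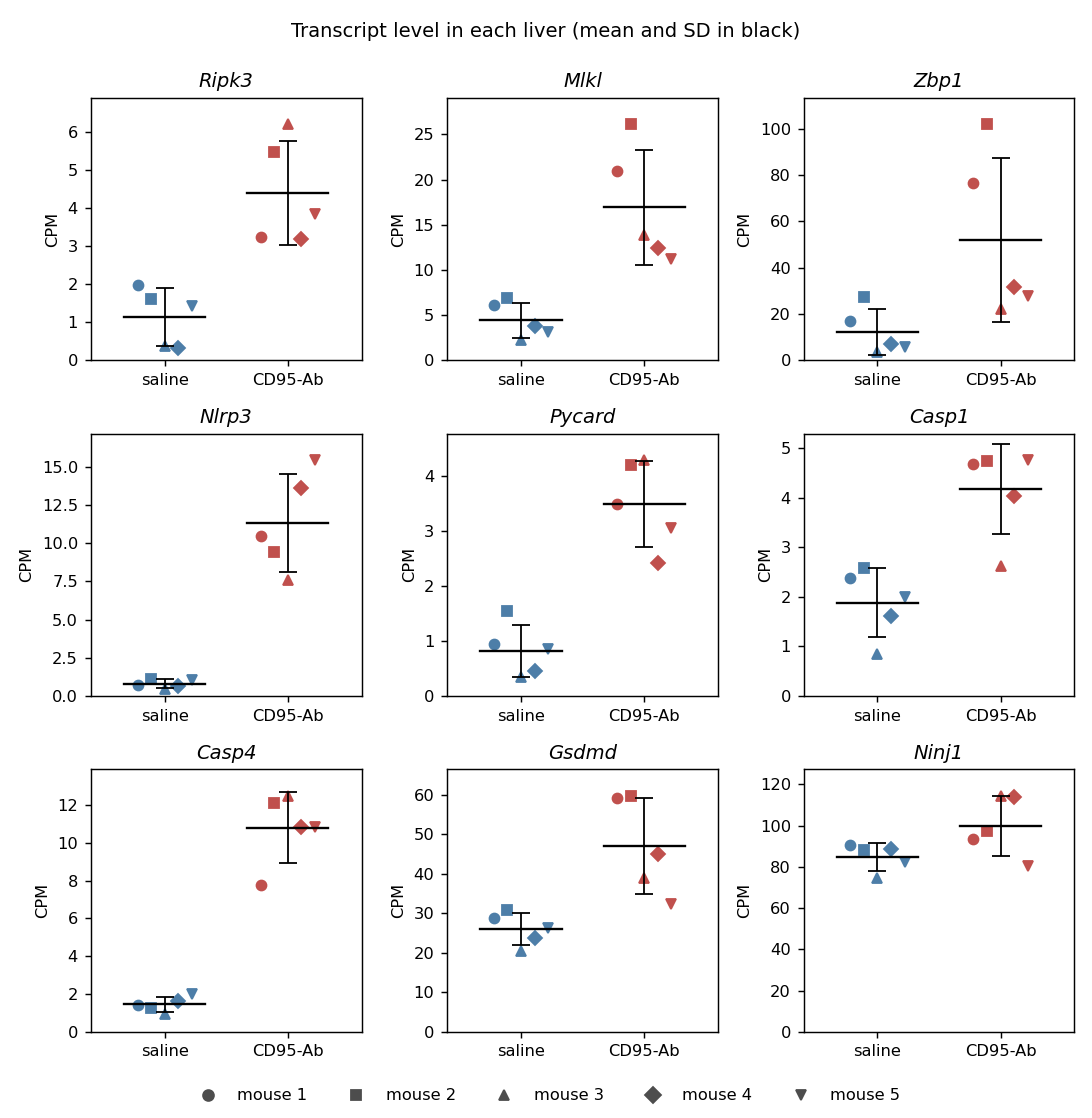
Level of each of the 9 transcripts in CPM (vertical axes from 0, linear) in the 5 saline (blue) and 5 CD95-Ab (red) livers, one symbol per mouse number, with the mean as a black line and the SD as the error bar. The groups are apart for Ripk3, Mlkl, Nlrp3, Pycard, Casp1, Casp4 and Gsdmd, and overlap for Zbp1 and Ninj1. A shared symbol marks a shared number in the labels, not the same animal.

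The necroptosis genes are given first, from the sensor to the effector. Zbp1, the sensor of Z-form nucleic acids that activates RIPK3, is at chr2:173206612-173218923 on the minus strand (GRCm38). It measured 17.0, 27.4, 3.49, 7.0 and 5.60 CPM in saline mice 1 to 5, and 76.4, 102, 22.2, 31.6 and 27.8 CPM in CD95-Ab mice 1 to 5. Mice 1 and 2 were the highest of their group in both groups, and the groups overlapped through a single mouse, since saline mouse 2 exceeded CD95-Ab mouse 3. The averages were 12.1 ± 10.01 and 52.0 ± 35.3 CPM, a log2 fold change of 2.10 (SE 0.59, edgeR FDR 0.0120). The coefficient of variation was 82.7% in saline livers and 67.9% in CD95-Ab livers, the highest of the 9 genes in each group. Without the 4 mice numbered 1 and 2, a choice made after these values were seen, the log2 fold change of Zbp1 was 2.34 (SE 0.28, edgeR FDR 6.47e-04).

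Ripk3, the kinase at the centre of necroptosis, lies at chr14:55784995-55788865 on the minus strand. Its level was 1.98, 1.60, 0.366, 0.308 and 1.43 CPM in saline mice 1 to 5, and 3.24, 5.48, 6.21, 3.19 and 3.85 CPM in CD95-Ab mice 1 to 5. Saline mice 3 and 4 were far below the other controls, and the lowest CD95-Ab liver was above the highest saline liver. Ripk3 averaged 1.14 ± 0.756 CPM in saline and 4.39 ± 1.37 CPM in CD95-Ab livers, a log2 fold change of 1.92 (SE 0.45, edgeR FDR 0.00428). These values rest on few reads, with 8 to 84 counts per saline mouse and 79 to 174 per CD95-Ab mouse. Mlkl, the membrane-permeabilising effector that RIPK3 phosphorylates, lies at chr8:111311797-111338177 on the minus strand. Its level was 6.07, 6.85, 2.28, 3.77 and 3.13 CPM in saline mice 1 to 5, and 20.99, 26.1, 13.8, 12.4 and 11.2 CPM in CD95-Ab mice 1 to 5. As for Zbp1, mice 1 and 2 led their group in both groups, but here the groups did not overlap. Mlkl rose from 4.42 ± 1.95 to 16.9 ± 6.42 CPM, a log2 fold change of 1.93 (SE 0.33, edgeR FDR 5.51e-04).

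Of the other 17 genes on the necroptosis list, all were tested, 10 were higher, 1 was lower and 6 did not pass, with a median log2 fold change of 0.44. That is 64.7% called, where 25.4% of all tested genes were higher and 22.0% were lower. Ripk1, the kinase upstream of RIPK3 at death receptors, rose from 22.1 ± 2.35 to 28.5 ± 2.45 CPM (log2 fold change 0.37, SE 0.11, edgeR FDR 0.0161). Cflar, which encodes the caspase-8 regulator cFLIP, rose from 55.9 ± 9.74 to 95.2 ± 10.7 CPM (0.77, SE 0.15, FDR 0.00108). Fadd, the adaptor between CD95 and caspase-8, was the gene that fell, from 6.78 ± 1.12 to 4.62 ± 0.438 CPM (-0.55, SE 0.15, FDR 0.00981). Casp8 itself measured 24.9 ± 4.67 and 29.6 ± 3.60 CPM and did not pass (0.25, SE 0.14, FDR 0.168). The 3 genes past both thresholds were Tnfaip3 with a log2 fold change of 5.29, Ikbke with 3.69 and Birc3 with 2.57. They encode the ubiquitin-editing enzyme A20, an IκB kinase-related kinase and the ubiquitin ligase cIAP2, and all are also known as NF-κB targets or regulators. Cyld, a deubiquitinase that removes chains from RIPK1, rose with a log2 fold change of 0.44 (SE 0.13, edgeR FDR 0.0162).

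The inflammasome genes showed the change of greatest size among the 9. Nlrp3, the sensor that responds to potassium efflux and membrane damage, lies at chr11:59541568-59566956 on the plus strand. Its level was 0.706, 1.10, 0.423, 0.654 and 1.08 CPM in saline mice 1 to 5, and 10.5, 9.43, 7.60, 13.6 and 15.5 CPM in CD95-Ab mice 1 to 5. Every CD95-Ab liver stood far above every control. The averages were 0.791 ± 0.290 and 11.3 ± 3.19 CPM, a log2 fold change of 3.82 (SE 0.29, edgeR FDR 1.96e-06) and a 14.1-fold difference. By size of increase Nlrp3 was gene number 219 of the 13719 tested.

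Pycard, which encodes the adaptor ASC, lies at chr7:127989708-127993867 on the minus strand. Its level was 0.941, 1.54, 0.338, 0.462 and 0.853 CPM in saline mice 1 to 5, and 3.50, 4.20, 4.30, 2.42 and 3.06 CPM in CD95-Ab mice 1 to 5. Saline mouse 2 was the highest control and still below every CD95-Ab liver. Pycard rose from 0.827 ± 0.473 to 3.50 ± 0.790 CPM, a log2 fold change of 2.06 (SE 0.35, edgeR FDR 5.72e-04). Counts were low, at 12 to 52 per saline mouse and 60 to 138 per CD95-Ab mouse. GENCODE places an unnamed transcript, Gm45205, on the opposite strand over 485 exon bases of Pycard, and whether the library kept strand is not given in the sources used here. Reads of the 2 cannot be told apart without strand. Gm45205 was not among the counted genes, so without strand its reads over these bases could be counted for Pycard.

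Casp1, the protease that matures IL-1β, lies at chr9:5298517-5307265 on the plus strand. Its level was 2.38, 2.58, 0.845, 1.62 and 2.00 CPM in saline mice 1 to 5, and 4.69, 4.75, 2.63, 4.04 and 4.76 CPM in CD95-Ab mice 1 to 5. CD95-Ab mouse 3 was the lowest of its group and only just above saline mouse 2, the highest control. Casp1 rose from 1.88 ± 0.687 to 4.17 ± 0.914 CPM, a log2 fold change of 1.14 (SE 0.28, edgeR FDR 0.00567). Its neighbour Casp4, the sensor of cytosolic lipopolysaccharide, starts 1562 bases beyond the end of Casp1, at chr9:5308828-5336783 on the same strand. Casp4 measured 1.41, 1.25, 0.930, 1.65 and 2.02 CPM in saline mice 1 to 5, and 7.77, 12.1, 12.5, 10.9 and 10.8 CPM in CD95-Ab mice 1 to 5. CD95-Ab mouse 1 was the lowest of its group and yet well above all controls. Casp4 rose from 1.45 ± 0.413 to 10.8 ± 1.86 CPM, a log2 fold change of 2.89 (SE 0.22, edgeR FDR 1.96e-06). The 2 caspases are related in sequence, and reads that fit both were divided between them by the counting program.

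The bases before the start sites of these neighbouring caspases and of Nlrp3, the member that changed most, are shown. They come from the RefSeq promoter table (GRCm38.p6), which held 9 promoters of 7 of the 9 members and none of Zbp1 or Gsdmd. All 3 are on the plus strand and run 250 bases up to the base before an annotated start site, with the bases that match an NF-κB site in capitals. The Casp4 stretch lies between Casp1 and Casp4, at chr9:5308599-5308848, and its last bases reach into the Casp4 gene as GENCODE draws it. The Nlrp3 stretch is at chr11:59541319-59541568, and the Casp1 stretch at chr9:5298267-5298516. For Nlrp3 the promoter that held a match was picked for printing.
Casp4: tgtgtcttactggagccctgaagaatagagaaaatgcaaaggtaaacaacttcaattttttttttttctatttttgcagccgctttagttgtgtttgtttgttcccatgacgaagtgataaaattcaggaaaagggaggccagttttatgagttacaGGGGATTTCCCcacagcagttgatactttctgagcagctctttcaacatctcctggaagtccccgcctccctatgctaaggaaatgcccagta
Nlrp3: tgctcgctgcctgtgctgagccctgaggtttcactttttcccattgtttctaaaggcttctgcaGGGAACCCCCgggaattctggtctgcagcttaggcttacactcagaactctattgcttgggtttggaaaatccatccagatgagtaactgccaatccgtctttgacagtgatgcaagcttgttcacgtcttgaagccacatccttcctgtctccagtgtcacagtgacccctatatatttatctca
Casp1: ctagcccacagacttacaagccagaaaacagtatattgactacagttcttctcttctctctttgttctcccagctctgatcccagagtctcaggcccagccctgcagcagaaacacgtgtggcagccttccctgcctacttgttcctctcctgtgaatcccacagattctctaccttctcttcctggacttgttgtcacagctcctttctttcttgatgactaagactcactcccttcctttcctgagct

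Casp4 held a pair of overlapping NF-κB matches on the plus strand, the first at 93 bases before the start, and the second Casp4 promoter of the table, from a start site slightly downstream, held the same bases. Nlrp3 held 1 match on the minus strand, 186 bases before the start, in this promoter and none in the other Nlrp3 promoter of the table. No NF-κB match was found in the promoters of Ripk3, Mlkl, Pycard, Casp1 or Ninj1. Over all 32851 promoters of 300 bases in the table, 4.51% held an NF-κB match on either strand. The interferon-stimulated response element core GAAANNGAAA (3.44% of all promoters) and the gamma-activated site TTCNNNGAA (8.30%) were searched on both strands, and neither was found in any of the 9 promoters. The 2 kinds of interferon motif can share bases where they occur together. A match describes letters in a window, not binding, and a link between matches and the size of a change was not tested.

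On the inflammasome list, 21 of the other 24 genes were tested, 8 were higher, 2 were lower and 11 did not pass, with a median log2 fold change of 0.43. The share called was 47.6%, where 25.4% of all tested genes were higher and 22.0% were lower. Il1b, the cytokine gene whose product caspase-1 matures, rose from 1.83 ± 0.617 to 25.2 ± 15.1 CPM (log2 fold change 3.78, SE 0.41, edgeR FDR 2.36e-05). Il18, the other substrate, measured 6.65 ± 1.92 and 5.47 ± 0.758 CPM and did not pass (-0.28, SE 0.20, FDR 0.277). Also past both thresholds were Mefv, the pyrin sensor, with 3.61, Gbp2, a guanylate-binding protein of cytosolic defence, with 3.53, and Pstpip1, a pyrin-binding protein, with 2.46. Nlrc4, the adaptor recruited by NAIP sensors of bacterial proteins, rose from 0.464 ± 0.227 to 1.31 ± 0.446 CPM (1.48, SE 0.36, FDR 0.00545), whereas Aim2, the sensor of cytosolic DNA, did not pass (0.58, SE 0.30, FDR 0.135). Nek7, the kinase that binds NLRP3, measured 33.5 ± 11.2 and 30.6 ± 10.3 CPM (-0.13, SE 0.30, FDR 0.741). The 2 that fell were Txnip, a thioredoxin-binding protein reported to bind NLRP3, from 149 ± 66.4 to 54.0 ± 13.9 CPM (-1.47, SE 0.30, FDR 0.00193), and Nlrp12 (-0.80, SE 0.29, FDR 0.0369). Gbp5 and Irgb10 were not matched to the tables.

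The genes of pyroptotic membrane breach, Gsdmd and Ninj1, had the smallest changes of the 9. Gsdmd, the pore-forming substrate of both caspases, lies at chr15:75862327-75867408 on the plus strand. Its level was 28.7, 30.9, 20.5, 23.7 and 26.3 CPM in saline mice 1 to 5, and 59.2, 59.8, 39.0, 44.9 and 32.4 CPM in CD95-Ab mice 1 to 5. Mice 1 and 2 were again the highest of each group, and CD95-Ab mouse 5 was only slightly above the highest control. Gsdmd rose from 26.02 ± 4.11 to 47.1 ± 12.2 CPM, a log2 fold change of 0.85 (SE 0.18, edgeR FDR 0.00253). Ninj1, the mediator of plasma membrane rupture, lies at chr13:49187485-49196244 on the plus strand. It measured 90.7, 88.3, 74.4, 88.6 and 82.2 CPM in saline mice 1 to 5, and 93.4, 97.1, 114, 114 and 80.2 CPM in CD95-Ab mice 1 to 5. CD95-Ab mice 3 and 4 were the highest of all, CD95-Ab mouse 5 was below most controls, and the groups overlapped. The averages were 84.8 ± 6.63 and 99.8 ± 14.5 CPM, and the difference did not pass (log2 fold change 0.23, SE 0.13, edgeR FDR 0.142).

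Of the other 18 genes on the pyroptosis and membrane rupture list 9 were tested, 3 were higher, 0 were lower and 6 did not pass. That is 33.3% called, below the 47.3% of all tested genes. The 3 higher genes were the cytotoxic granule proteases Gzmb (log2 fold change 1.79) and Gzma (1.74), and Chmp4b (1.10), a component of the membrane repair machinery. Gsdme, another pore-forming gasdermin, measured 8.76 ± 1.89 and 10.3 ± 2.28 CPM (0.23, SE 0.18, edgeR FDR 0.331). Ninj2, the relative of Ninj1, and 5 genes of the gasdermin A and C families were at 0 counts in every mouse. Taking the 3 lists together without the 9 members and counting each gene once, 46 genes were tested, 21 were higher and 3 were lower. That is 52.2% called in both directions together, against 47.3% of all tested genes. The split by direction was unlike the background, where 25.4% of all tested genes were higher and 22.0% were lower. Of the 46 genes, 7 passed both thresholds upward, where 904 of all 13719 tested genes did (6.59%). The 7 were 3 genes of the necroptosis list and 4 of the inflammasome list, with 0 from the pyroptosis list. The median log2 fold change of the 46 genes was 0.40 where that of the 9 members was 1.93.

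**Figure D2:**
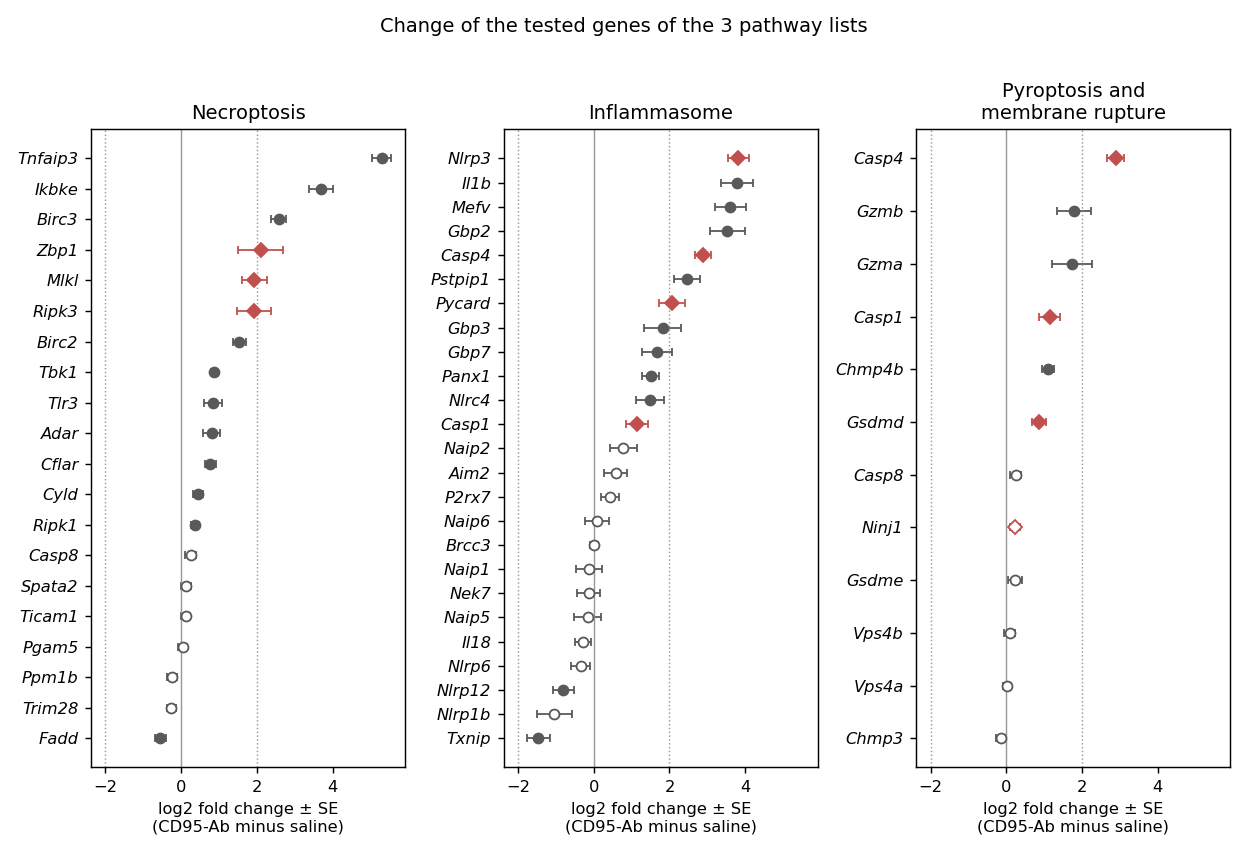
Log2 fold change (horizontal axes, CD95-Ab minus saline) with its SE for the tested genes of the necroptosis, inflammasome and pyroptosis lists (1 pyroptosis gene is not drawn), the 9 members as red diamonds and other genes as grey circles, filled where the FDR was 0.05 or less, with dotted lines 2 units to either side of 0. Nlrp3 at 3.82 and Casp4 at 2.89 stand near the top of their lists, whereas Ninj1 at 0.23 is open and close to 0. Casp1, Casp4 and Casp8 are drawn on 2 lists.

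Levels of different genes were compared in FPKM, the deposited fragment counts scaled for transcript length and library total. In saline livers the order of average FPKM was Ninj1 (78.6 ± 11.8), Gsdmd (15.7 ± 3.68), Zbp1 (10.6 ± 8.87), Mlkl (2.61 ± 1.17), Casp1 (1.37 ± 0.585), Casp4 (1.24 ± 0.270), Ripk3 and Pycard (0.65 ± 0.464 and 0.65 ± 0.422), and Nlrp3 (0.208 ± 0.0785). Ninj1 was separate from Gsdmd in all mice, and every other pair of neighbours in that order overlapped. In CD95-Ab livers the order was Ninj1 (86.5 ± 8.13), Zbp1 (36.9 ± 28.1), Gsdmd (27.0 ± 9.22), Mlkl (9.35 ± 3.94), Casp4 (7.96 ± 0.960), Casp1 (2.86 ± 0.842), Nlrp3 (2.82 ± 0.830), Pycard (2.54 ± 0.649) and Ripk3 (2.30 ± 0.660). Here 3 steps were free of overlap, from Ninj1 to Zbp1, from Gsdmd to Mlkl and from Casp4 to Casp1. Casp4 thus had a level like that of Casp1 in controls, where it was the lower of the pair in 2 of 5 mice by FPKM, and a higher level than Casp1 in all 5 CD95-Ab livers. Nlrp3, the lowest of the 9 in controls, overlapped with Casp1 and Pycard after CD95-Ab.

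**Figure D3:**
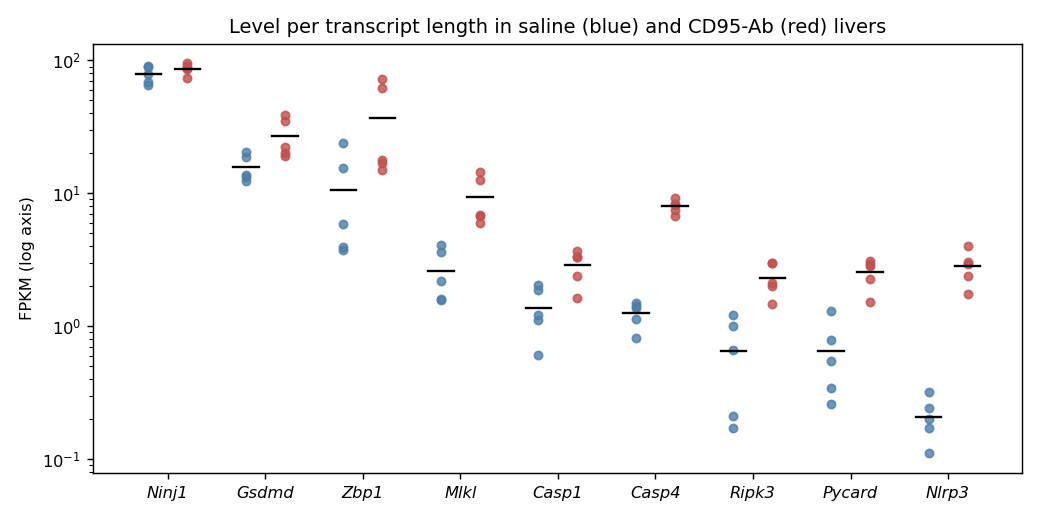
Level of the 9 transcripts in FPKM (vertical axis, log scale), one point per liver, saline in blue and CD95-Ab in red, with a black line at each group mean, ordered by the mean in saline livers. Ninj1 is highest in both groups, and the red points of Casp4 lie above all red points of Casp1.

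Whether partners changed by different amounts was tested on the log2 ratio of their CPM within each mouse, after 0.1 CPM was added to each, so that the scaling of a library largely cancels except at the lowest levels. Of 5 pairs set by role, 3 differed between the groups in a two-sided exact permutation test over all splits of the 10 mice into 5 and 5, with p adjusted over the 5 pairs, and 0.00794 is the smallest p the test can give. The pairs were chosen with earlier results of these data known, which the p-values do not take into account. The ratio of Casp4 to Casp1 was -0.31 ± 0.51 in saline and 1.37 ± 0.54 in CD95-Ab livers, a difference of 1.67 with no overlap (exact p = 0.00794, adjusted 0.0198). The ratio of the sensor Nlrp3 to the adaptor Pycard went from 0.03 ± 0.41 to 1.65 ± 0.71, a difference of 1.62, also with no overlap (exact p = 0.00794, adjusted 0.0198). The ratio of Ninj1 to Gsdmd went from 1.71 ± 0.16 to 1.11 ± 0.41, a difference of -0.60, with overlap (exact p = 0.0159, adjusted 0.0265). Leaving out any one mouse other than saline mouse 2 or CD95-Ab mouse 3 gave an adjusted exact p of 0.0529 for this ratio, in a design with fewer splits, while the difference stayed between -0.71 and -0.49.

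Within the necroptosis chain no shift was detected. The ratio of Mlkl to Ripk3 was 2.06 ± 0.82 in saline and 1.89 ± 0.59 in CD95-Ab livers (difference -0.16, exact p = 0.738, adjusted 0.794). The ratio of Zbp1 to Ripk3 was 3.21 ± 0.91 and 3.33 ± 1.08 (difference 0.12, exact p = 0.794, adjusted 0.794). Both differences were far smaller than the SD between mice, and the low counts of Ripk3 limit their precision.

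**Figure D4:**
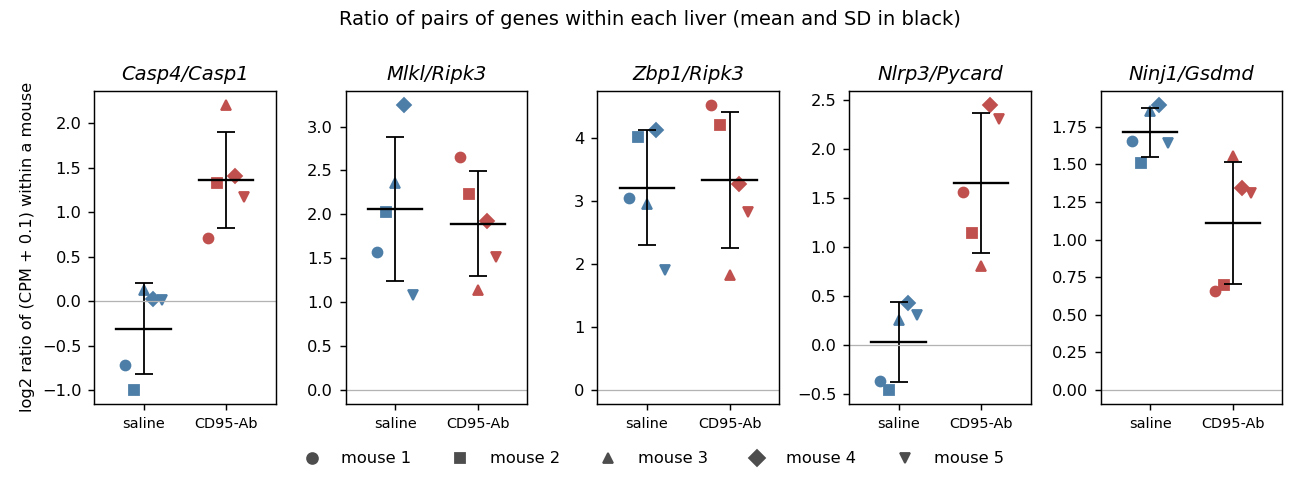
Log2 ratio of (CPM + 0.1) of 2 genes within each liver (vertical axes, one point per mouse, mean and SD in black) for 5 pairs in saline (blue) and CD95-Ab (red) livers. Casp4/Casp1 and Nlrp3/Pycard are higher in every CD95-Ab liver than in every saline liver, Ninj1/Gsdmd is lower on average, and Mlkl/Ripk3 and Zbp1/Ripk3 overlap widely.

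The 9 genes did not all vary together from mouse to mouse. With each group centred on its own mean, the Pearson correlation of log2 CPM over the 10 mice was 0.97 between Mlkl and Zbp1, 0.88 between Ripk3 and Pycard, 0.86 between Mlkl and Gsdmd and 0.85 between Zbp1 and Gsdmd. It was -0.10 between Zbp1 and Casp4 and 0.01 between Mlkl and Casp4. These values are descriptions, as all genes of a mouse share its library and its scaling. Among 13704 genes, the one most like each changed member by the same measure was Irf7 for Zbp1 (r = 0.98, Spearman's rho = 0.87), Gbp3 for Mlkl (0.97 and 0.98), Txk for Ripk3 (0.93 and 0.88) and Psmb8 for Gsdmd (0.97 and 0.96). For the inflammasome genes it was Dcp1a for Nlrp3 (0.95 and 0.83), Ms4a6d for Pycard (0.97 and 0.94), Smc1b for Casp1 (0.98 and 0.94) and Neurl1b for Casp4 (0.96 and 0.95). Each of these genes was picked as the highest among 13704 over only 10 mice, so a high value alone is no sign of a link. The next gene could be as close, such as Pld4 for Casp1 (r = 0.98) and Asf1b for Ripk3 (r = 0.93). A like pattern within groups did not always go with a like difference between them. The differences of Irf7 (log2 fold change 0.65, edgeR FDR 0.372), Dcp1a (0.28, FDR 0.140), Smc1b (0.73, FDR 0.356) and Psmb8 (0.65, FDR 0.0763) did not pass, Neurl1b fell (-1.20, FDR 0.0293), and Gbp3 (1.82, FDR 0.00962), Txk (1.64, FDR 0.0113) and Ms4a6d (3.32, FDR 1.58e-05) rose.

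Transcripts that mark other cell types were compared between the same livers, where 25.4% of all tested genes were higher and 22.0% were lower. The neutrophil list summed to 4.23 to 11.01 CPM in saline and 110 to 466 CPM in CD95-Ab livers, and all 7 of its 11 genes that could be tested were higher. The monocyte list summed to 5.83 to 15.9 and 78.4 to 155 CPM, and all 6 genes were higher. The filter kept a gene with enough counts in the mice of a single group. Genes near the floor in saline livers could thus be tested largely through the CD95-Ab group. Among them were Mmp8 (0.135 ± 0.123 CPM in saline), Ngp (0.116 ± 0.0601) and F13a1 (0.148 ± 0.0775). For such genes on any of these lists, being tested and being called higher were nearly the same event. The Kupffer cell list summed to 174 to 574 and 338 to 738 CPM, with 3 of 10 genes higher and 0 lower and a median log2 fold change of 0.66. Marco (log2 fold change 2.11, edgeR FDR 0.00407), Folr2 (1.04, FDR 0.00144) and Cd5l (1.01, FDR 0.0398) rose, whereas Clec4f (91.9 ± 32.4 and 98.4 ± 31.1 CPM, edgeR FDR 0.801) and Vsig4 (19.1 ± 5.08 and 18.8 ± 6.70 CPM, FDR 0.955) did not pass. The 5 saline mice had the same order by Casp1, Pycard and Gsdmd as by the Kupffer cell sum, with mouse 3 lowest and mouse 2 highest. None of the other members, Nlrp3 and Casp4 included, had that order in the saline mice. There mouse 5 was highest by Casp4, and mouse 1 by Ripk3 and Ninj1. In the CD95-Ab mice Casp1, Pycard and Gsdmd did not keep the order of the sum either. There mouse 4 was lowest by the sum, mouse 3 by Casp1 and mouse 5 by Gsdmd. Mouse 3 was highest by Pycard, where mouse 2 was highest by the sum. The order of Nlrp3 over the CD95-Ab mice was neither that of the neutrophil sum nor that of the monocyte sum. Mouse 3 had the lowest Nlrp3 and the highest neutrophil sum. Mouse 5 was highest by Nlrp3 and by the monocyte sum, and mouse 4 was lowest by the monocyte sum. These orders of 5 mice per group, for genes and lists picked here, are descriptions, and a link with cell composition was not tested. Lymphocyte lists were low, at 1.63 to 5.67 and 8.36 to 13.8 CPM for T and NK cells (6 of 8 tested genes higher) and at 0.693 to 3.77 and 2.37 to 14.5 CPM for B cells (3 of 4 higher).

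The hepatocyte list summed to 109415 to 133134 CPM in saline and 56449 to 97538 CPM in CD95-Ab livers, with 4 of 9 genes lower and 1, the fibrinogen gene Fgb, higher. Sums were higher for endothelial cells (52.3 to 118 and 179 to 358 CPM, 6 of 7 genes higher), stellate cells (157 to 217 and 357 to 583 CPM, 4 of 6) and cholangiocytes (18.3 to 33.8 and 48.3 to 186 CPM, 4 of 5). Erythroid transcripts summed to 135 to 324 and 1064 to 33999 CPM, with all 6 genes higher. A list of RNAs that are largely without a poly(A) tail, read here as a sign of RNA quality or selection, summed to 73.7 to 164 and 439 to 1473 CPM, with 6 of 8 tested genes higher. Among the 6, Rn7s1 and Rn7s2 had identical values (1.19 ± 0.579 and 11.8 ± 6.64 CPM), so they are not separate signals. Snora81, Hist1h4n and Rpph1 averaged 0, 0.0141 and 0.0546 CPM in saline livers, so they too could be tested largely through the CD95-Ab group. The saline sums were mostly the histone transcripts Hist1h2bc (72.0 ± 18.1 and 71.9 ± 24.2 CPM) and Hist1h1c (42.6 ± 24.0 and 24.5 ± 6.11 CPM), which did not pass, and the CD95-Ab sums were on average mostly Rn7sk, which rose from 0.392 ± 0.241 to 742 ± 354 CPM (log2 fold change 10.96, SE 0.53, edgeR FDR 1.86e-07). None of the genes on these lists was at 0 in all mice. The part of cell composition and of RNA quality in the changes of the 9 genes was not tested.

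**Figure D5:**
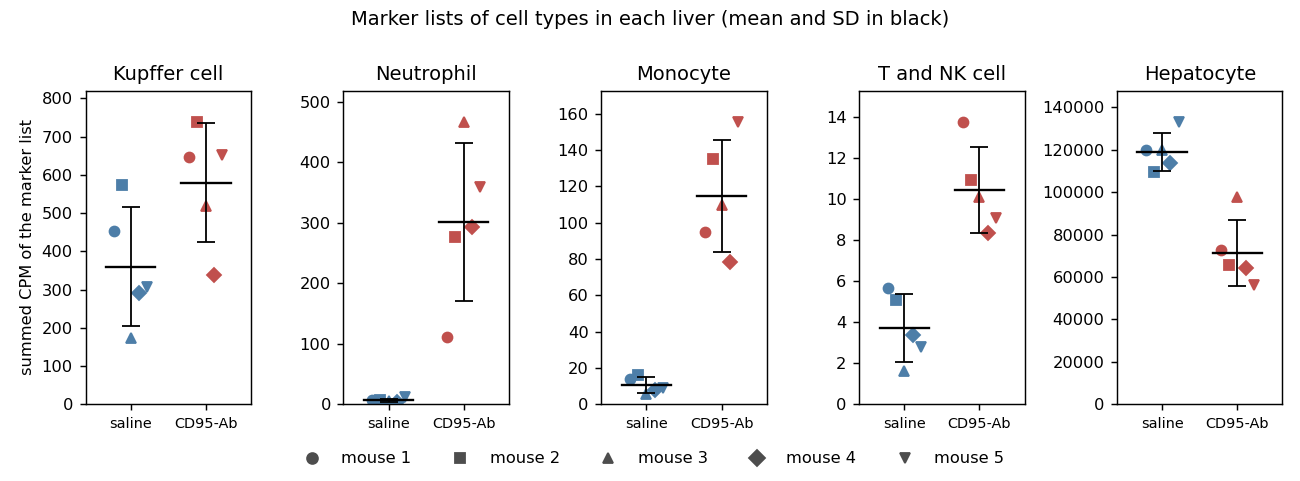
Summed CPM of 5 marker lists (vertical axes from 0, linear) in each saline (blue) and CD95-Ab (red) liver, with mean and SD in black. Neutrophil and monocyte sums are higher in every CD95-Ab liver, the Kupffer cell sums of the groups overlap, and the hepatocyte sums are lower in every CD95-Ab liver.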

How the data were processed

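Livers of 5 saline and 5 CD95-Ab mice were analysed, grouped by the sample labels. RNA (500 ng) was prepared with TruSeq reagents and sequenced as pairs of 100 bp reads. The authors assigned reads to genes with RSEM version 1.2.19, per the labels, and deposited for each mouse the expected counts per gene, not normalized and all whole numbers, and FPKM, which are scaled for transcript length and library total. Reads that fit several genes are divided by RSEM. The mouse build and annotation are not given in the sources used here. Symbols and positions came from GENCODE mouse release 21 (GRCm38), which named 37606 of 38922 identifiers. Of all genes, 15804 were at 0 in every mouse.

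Genes were kept by filterByExpr with a minimum count of 10, totals were scaled by TMM, and the quasi-likelihood F test of edgeR (version 4.0.16, R 4.3.3) compared the groups without covariates. The code was first tested on simulated data. CPM refer to TMM-scaled totals. SEs were derived from the F statistic. Pair ratios used log2(CPM + 0.1) and scipy 1.17.1. DESeq2 1.42.0 was an alternative, together with other factors, filters, prior counts and each mouse left out. The 3 counts taken as a floor, and the SDs, cover counting and sampling of these mice only. Pathway and marker lists were written by hand, and 1 listed gene is counted but not reported here. Besides the 9 members, genes of the pathway lists were named where they passed an FDR of 0.05 with a log2 fold change of 2 or more in either direction, or are direct partners or close regulators in these pathways (Ripk1, Casp8, Cflar, Fadd, Cyld, Nlrc4, Aim2, Gsdme, Ninj2, Il1b, Il18, Nek7, Txnip), and for each changed member the gene with the highest group-centred correlation was named. Birc2, Adar, Tlr3, Tbk1, Panx1, Gbp3 and Gbp7 also rose and have no values in the account of their lists. Gzma, Gzmb, Chmp4b and Nlrp12 were named after their values were seen. Members, lists and tests were chosen with earlier results of these data known.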

Additional observations from a re-analysis of the deposited data

How the results depend on the processing

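Under 20 alternatives the direction of all 9 log2 fold changes was kept, and the 8 genes that passed did so in every fit in which they were tested. Ripk3 was removed by a filter of at least 10 counts in every mouse, which left 7 called. Nlrp3 ranged from 3.66 to 4.04, Casp4 from 2.76 to 3.04, Zbp1 from 1.71 to 2.64 and Ninj1 from 0.13 to 0.32 (FDR 0.0540 to 0.477, passing in 0 of 20). The number past both thresholds was 2 to 6 with 1 mouse left out, 3 with upper-quartile factors, plain totals or a prior count of 2, and 6 without the 4 mice numbered 1 and 2. That last alternative, added after seeing the data, called 3703 genes, with fewer mice in the fit, where 5616 to 6977 were called with 1 mouse left out. With 1 mouse left out the difference ranged from 1.46 to 1.84 for Casp4/Casp1, from 1.42 to 1.83 for Nlrp3/Pycard, from -0.71 to -0.49 for Ninj1/Gsdmd, from -0.41 to 0.14 for Mlkl/Ripk3 and from -0.21 to 0.50 for Zbp1/Ripk3. Mlkl/Ripk3 was 0.35 with a pseudocount of 1 CPM (adjusted exact permutation p = 0.278), and Zbp1/Ripk3 was -0.063 from FPKM (adjusted exact permutation p = 0.881), and the cause was not tested. Low counts of Ripk3 and Pycard limit their precision.

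The labels number the mice of both groups 1 to 5 without saying that a number is shared. Deviations of same-numbered mice had a mean correlation of 0.036 (-0.27 to 0.26), against -0.0062 for different numbers, and 4 of 10 mice correlated best with their own number. These values do not settle whether a number marks a pair. The main test did not take the numbers as pairs, as the labels give no pairing. With the number as a replicate block, 5987 genes and 8 members were called, 5 of them past both thresholds, and Zbp1 had a log2 fold change of 2.24 (SE 0.14, edgeR FDR 2.91e-05). Under the same replicate block the differences of 1.67 for Casp4/Casp1, 1.62 for Nlrp3/Pycard and -0.60 for Ninj1/Gsdmd had an adjusted exact p of 0.104, since the smallest p that 5 pairs allow is 0.0625.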
